A study of Mus musculus with 8 samples.

Results

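The genes of oxidative phosphorylation, the mitochondrial respiratory chain and ATP synthase, were examined as a group of 105 genes among 18141 genes counted in single cells of mouse frontal cortex. Members were chosen by symbol alone: all symbols starting with mt-, Nduf, Uqcr or Atp5, those starting with Cox4 to Cox8, and Sdha, Sdhb, Sdhc and Sdhd. Of the 105 members, 13 are encoded by the mitochondrial genome (mt-) and 92 by the nuclear genome. The nuclear members hold 36 complex I subunits, 7 complex I assembly factors (Ndufaf genes), 4 complex II subunits, 8 complex III genes (Uqcr), 20 complex IV genes, 15 complex V genes, and Atp5s and Atp5sl. Ndufa4 and Ndufa4l2 were counted with complex IV.

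Live single cells were sorted from frontal isocortex of mice at postnatal day 7 by fluorescence of either of 2 transgenes, Drd1a-tdTomato (D1Tom) or golli-τ-eGFP (GTE), and sequenced with the 10x Genomics Chromium 3′ kit. All animals were Foxp2 flox/flox and carried the reporter, on a line backcrossed to C57BL/6J. Control mice had no Cre, and conditional knockout (cKO) littermates also carried Emx1-Cre, which recombines in the lineage of cortical excitatory neurons and glia and leaves cortical interneurons unrecombined. Each sort and genotype had 2 libraries, 8 in all, and the comparisons ask whether the group differed between genotypes, between sorts and between cell types. In D1Tom the control libraries and cKO 1 came from females and cKO 2 from a male. In GTE both controls and cKO 1 came from males and cKO 2 from a female. Batches are labelled for D1Tom, where control 1 was prepared with cKO 1 and control 2 with cKO 2. The Drd1a-tdTomato reporter is a bacterial artificial chromosome transgene, so it marks cells by transgene activity and not by the endogenous receptor.

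Complexes I to IV pass electrons from NADH and succinate to oxygen and, except for complex II, pump protons across the inner mitochondrial membrane. Complex V uses the proton gradient to make ATP. Complex II is encoded entirely by nuclear genes, whereas the other complexes join core subunits made inside the mitochondrion to nuclear subunits imported from the cytosol. The mitochondrial transcripts arise from long polycistronic precursors read from a small circular genome present in many copies per cell, and stretches of that genome are also found, inserted, in the nuclear genome.

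Total counts were 27323298 to 36379194 per library in D1Tom and 4878370 to 6092396 in GTE, from 1440 to 3948 cells. Library pairs shared 1 to 27 cell barcodes each. In CPM, counts scaled to the same total in every library, the targeted gene Foxp2 measured 36.3 and 39.1 for D1Tom controls against 26.5 and 19.4 for D1Tom cKO. For GTE the levels were 9.52 and 46.9 against 25.4 and 7.43, so the GTE genotypes overlapped. Whether these 3′ tags lie in the deleted part is not given in the sources used here. GTE cKO 1 stood apart from the other GTE libraries. It had a median of 2982 counts per cell against 1085.5 to 1268, ribosomal protein genes at a median of 7.82% of a cell's counts against 20.6% to 26.8%, and 8 pan-neuronal markers at 1357 CPM in sum against 2653 to 3461. Neurons and glia were marked in all 8 libraries, where the pan-neuronal markers summed to 1357 to 5579 CPM and 8 astrocyte markers to 2547 to 6710. All values below are given in the order control 1, control 2, cKO 1, cKO 2 unless stated otherwise.

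The D1Tom table held 97 members and the table of GTE held 104. Both included the 13 mitochondrial genes. The D1Tom table used here had no symbol starting with U, so the 8 Uqcr genes were analysed in GTE only. Cox8c was in the D1Tom table only.

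Many of the mitochondrial genes have near-identical copies in the nuclear genome, and these divide the 13 genes. The last 500 bases of each gene, where 3′ tags fall, were searched in 60-base windows against the other transcripts of the GENCODE M21 annotation (GRCm38). Only the sense orientation of each transcript was searched. In mt-Co2, mt-Co3, mt-Atp6, mt-Nd4l, mt-Nd3 and mt-Co1, 95.2% to 100% of windows were repeated exactly in another transcript. In mt-Nd1, mt-Nd4, mt-Cytb, mt-Nd6 and mt-Atp8 the share was 0%, in mt-Nd5 7.26% and in mt-Nd2 15.9%. The repeats lay mainly in a run of annotated pseudogenes on the reverse strand of chromosome 1. Among them Gm28661 matched mt-Co2 over 681 bases, Gm10925 matched mt-Atp6 over 678, Gm28437 matched mt-Co3 over 783 and Gm10222 matched mt-Nd4l over 294, each at 100% identity. Gm29216 matched mt-Co1 over 483 bases at 99.8% and Gm28438 matched mt-Nd3 over 345 at 99.7%. Gm28439 matched mt-Nd4 over 876 bases at 100%, but these are the first 876 bases of mt-Nd4 and lie outside its last 500. mt-Atp8 shares 43 bases with Gm10925, fewer than a window. Stretches of 90 bases from the 3′ ends show the contrast, with capitals where a mitochondrial gene and its copy differ. mt-Co2 (cytochrome c oxidase subunit 2, chrM:7604-7693, plus strand) and Gm28661 (chr1:24614885-24614974, minus strand) have 0 differences, mt-Nd4l (chrM:10081-10170, plus strand) has 0 differences from Gm10222 (chr1:24612407-24612496, minus strand), and mt-Cytb (cytochrome b, chrM:15198-15287, plus strand) has 6 differences from Gm11410 (chr4:80005042-80005131, plus strand).
mt-Co2: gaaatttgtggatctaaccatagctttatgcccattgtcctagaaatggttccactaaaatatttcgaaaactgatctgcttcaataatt
Gm28661: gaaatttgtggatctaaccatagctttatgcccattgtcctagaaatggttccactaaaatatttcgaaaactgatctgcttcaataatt
mt-Nd4l: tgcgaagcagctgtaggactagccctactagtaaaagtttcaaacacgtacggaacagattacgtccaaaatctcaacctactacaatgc
mt-Cytb: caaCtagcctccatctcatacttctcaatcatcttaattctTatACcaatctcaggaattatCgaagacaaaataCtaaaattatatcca
Gm11410: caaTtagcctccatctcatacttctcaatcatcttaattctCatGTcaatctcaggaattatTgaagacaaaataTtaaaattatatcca

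Within a library, the counts of the mitochondrial genes relative to mt-Nd1, the core complex I subunit with the most counts, were steady for 5 of the genes with few repeats and variable for the repeated genes and for mt-Atp8, which has no repeated window. mt-Nd2 stood at 17.7% to 19.4% of the mt-Nd1 count in the 8 libraries, a range of 1.10-fold. mt-Cytb, the complex III subunit, spanned 1.13-fold, mt-Nd5 1.27-fold, mt-Nd4 1.38-fold and mt-Nd6, the only mitochondrial member on the other strand, 1.95-fold. The order of these genes was the same in GTE and in D1Tom. mt-Co1, the catalytic subunit of complex IV, spanned 3.50-fold (3.41% to 11.9%), mt-Nd3 16.8-fold (0.206% to 3.44%) and mt-Nd4l 1782-fold (0.00240% to 4.28%).

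mt-Nd4l had 17529 to 25960 counts in each D1Tom library and 13, 6, 2 and 8 counts in the GTE libraries. mt-Co2 had 3038, 8648, 258 and 874 counts in D1Tom and 342, 0, 0 and 0 in GTE, so its level differed by over a factor of 10 between libraries of the same sort. mt-Co3 had 15201, 11539, 10169 and 3414 counts in D1Tom and 0, 0, 0 and 128 in GTE. mt-Atp6 was at 0 in GTE cKO 1, with 246, 179 and 522 counts in the other GTE libraries. mt-Atp8 was at 0 in 5 libraries and had 5383 counts in D1Tom cKO 2, 1750 in GTE cKO 2 and 2 in D1Tom control 2. A count of 0 allows up to 3 counts in a library. mt-Atp8 overlaps the start of mt-Atp6 on the mitochondrial genome (chrM:7766-7969 and chrM:7927-8607). How the deposited counting treated reads that align to a mitochondrial gene and to its copy is not given in the sources used here, and its part in these values was not tested. The genes with few repeats held 87.9% to 93.1% of the mitochondrial counts in D1Tom and 97.4% to 98.3% in GTE.

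**Figure D1:**
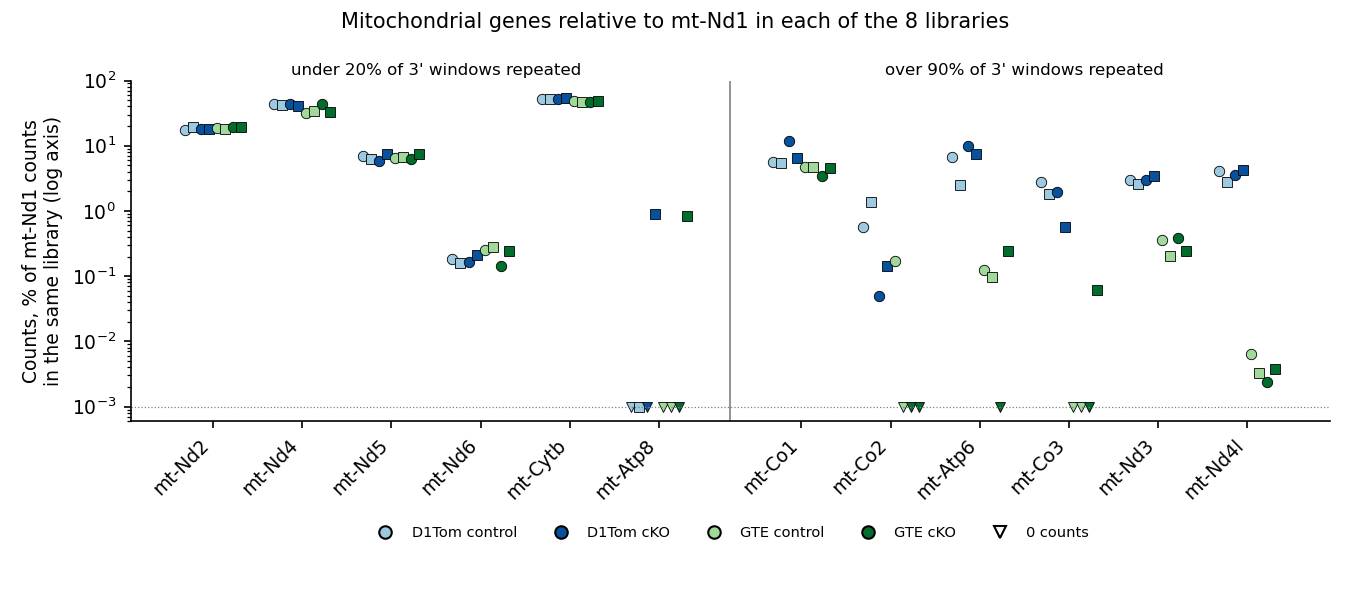
Counts of 12 mitochondrial-encoded genes as a percentage of the mt-Nd1 count of the same library, on a log axis, for the 8 libraries; triangles mark libraries with 0 counts. The 6 genes on the left have under 20% of windows repeated in other transcripts and the 6 on the right over 90%; mt-Nd2 stays between 17.7% and 19.4%, while mt-Nd4l spans 1782-fold.

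In CPM per kilobase of gene, mt-Nd1 was at 15608 to 39134, mt-Cytb at 6730 to 15991, mt-Nd4 at 4664 to 9129 and mt-Nd2 at 2550 to 7009 over the 8 libraries. mt-Co1 was at 363 to 1356 on the same scale. These are 3′ tags, so length scaling is a convention here and the order of the genes depends on where their tags fall.

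The sum of the 13 mitochondrial genes was compared with the sum of the nuclear members in each library. In D1Tom the mitochondrial sum took 3.62%, 4.20%, 4.41% and 5.40% of all counts, so both cKO libraries lay above both controls, by 1.25-fold in the geometric mean (3.91 ± 0.411% in controls and 4.90 ± 0.699% in cKO, SD, n = 2). This separation rested on the repeated genes. Without them the mitochondrial sum was 32780, 39094, 38756 and 49036 CPM, so cKO 1 lay below control 2. The nuclear sum took 2.79%, 2.74%, 2.86% and 3.42%, again with the cKO libraries above the controls (2.77 ± 0.0334% and 3.14 ± 0.395%). The ratio of the sums was 1.30, 1.53, 1.54 and 1.58, and cKO 1 exceeded control 2 by less than the controls differed from each other. With 2 libraries against 2, an exact permutation test cannot go below p = 0.33, which all 3 measures gave. Within batches the mitochondrial share in cKO was 1.22 times that of control in the first and 1.29 times in the second, and the nuclear share 1.03 and 1.25 times.

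In GTE the mitochondrial share was 6.99%, 7.86%, 3.60% and 8.05%, and the nuclear share 6.01%, 4.27%, 2.86% and 4.72%. The low values of both were in cKO 1, the library with fewer and deeper cells, and cKO 2 lay above both controls for the mitochondrial share and between them for the nuclear share. The ratio was 1.16, 1.84, 1.26 and 1.70, with the groups interleaved. The exact permutation p was 1 for the mitochondrial share, 0.667 for the nuclear share and 1 for the ratio. Over both sorts, with genotypes permuted within each sort, the log2 difference of cKO over control was -0.07 for the mitochondrial share (exact permutation p = 1), -0.14 for the nuclear share (p = 0.722 by the same exact test) and 0.07 for the ratio (p = 0.556, exact), where 0.0556 is the smallest p the design allows. Without GTE cKO 1 the mitochondrial difference was 0.22 (exact p = 0.111) and the nuclear difference 0.04. In sums over all cells of a library, more cells of a type and more RNA per cell cannot be told apart.

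**Figure D2:**
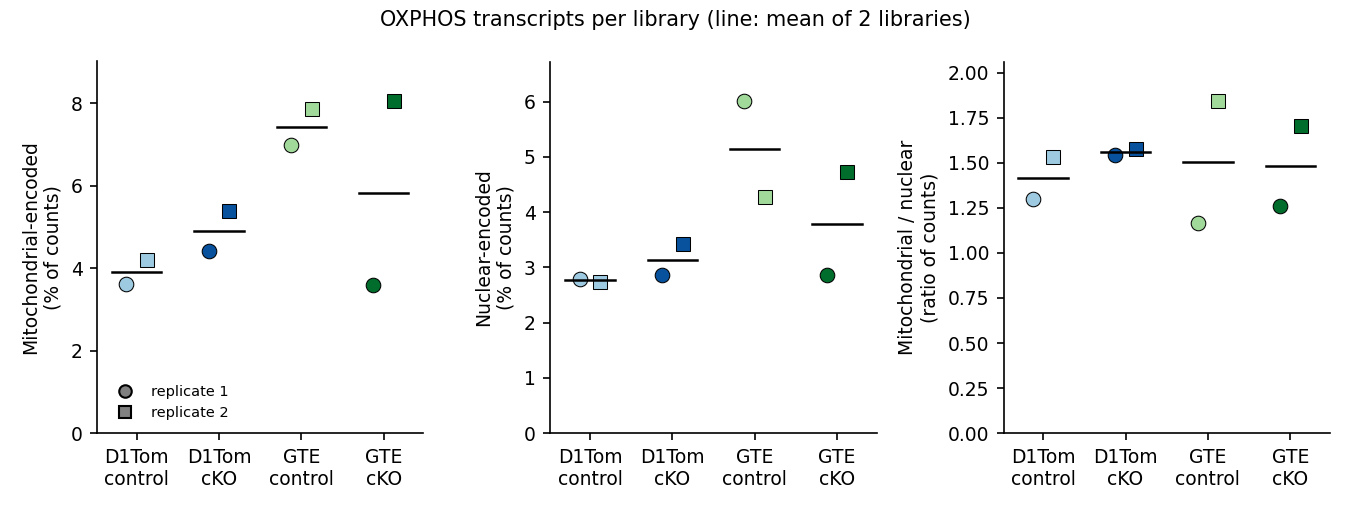
Percentage of all counts in mitochondrial-encoded genes (left), in nuclear-encoded members (middle) and their ratio (right), for each of the 8 libraries; circles are replicate 1, squares replicate 2 and lines the mean of the 2 libraries of a group. In D1Tom both cKO libraries lie above both controls in each panel, and in GTE cKO 1 lies lowest for both shares, at 3.60% and 2.86%.

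Gene by gene, no member passed the threshold between D1Tom cKO and control cells. The edgeR quasi-likelihood test on counts summed per library called 0 of 94 members tested and 0 of 14508 genes, a background of 0% at an adjusted p under 0.05. At an unadjusted p under 0.05 it took 4 members, against 2.21% of all genes, and DESeq2 called 2 members among 20 of 14508 genes. The median log2 fold change of cKO over control was 0.39 over 12 mitochondrial members and 0.14 over 82 nuclear members, against -0.01 over all genes. Values above 0 were found in 80 of 94 members, and in 69 when library totals were used without TMM factors, where the medians were 0.31 and 0.07 against -0.07. Both cKO libraries lay above both controls in CPM for 30 of the 94 members (7 of 12 mitochondrial and 23 of 82 nuclear), beside 9.7% of all genes, and below both for 3, beside 13.7%. The median values rest on cKO 2, without which they were 0.07 and 0.02.

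The 4 members with the smallest p in D1Tom were 3 of the repeated mitochondrial genes and Cox6b2. mt-Co1 was at 854, 960, 2095 and 1431 CPM, with a log2 fold change of 1.00 (SE 0.24), and mt-Atp6, a membrane subunit of ATP synthase, at 990, 439, 1741 and 1633 CPM (1.32, SE 0.37). Both genes were higher in both cKO libraries than in either control, by edgeR's test at an adjusted p of 0.998. DESeq2 gave mt-Co1 an adjusted p of 0.00179 and mt-Atp6 0.0317. mt-Co2 was at 83.5, 240, 8.75 and 32 CPM, the opposite direction (-2.90, SE 0.82, adjusted p = 0.998 in edgeR), and with the batch as a block edgeR called it (-3.0, adjusted p = 0.0218). Cox6b2, a complex IV subunit known best from testis, was at 11.5, 10.7, 15.6 and 12.9 CPM (0.42, SE 0.16), and Cox6a2, the heart and muscle form of subunit 6a, at 4.26, 4.59, 5.87 and 7.39 CPM (0.66, SE 0.29). mt-Nd1, whose windows are not repeated, was at 14937, 17818, 17536 and 22196 CPM (0.35, SE 0.33), so cKO 1 lay below control 2.

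By complex in D1Tom, log2 fold changes were above 0 for 15 of 15 nuclear complex V genes (0.04 to 0.48), 33 of 36 nuclear complex I subunits, 16 of 18 nuclear complex IV genes tested and 4 of 4 complex II subunits. For the 7 complex I assembly factors 1 value was above 0, with a median of -0.05. Among the complex II subunits Sdha was at 0.31, Sdhb at 0.12, Sdhc at 0.12 and Sdhd at 0.00. The lowest nuclear value was that of Ndufa4l2, at 12.1, 29.5, 5.70 and 15.5 CPM (-0.89), a gene found below in a cluster with vessel markers. The summed mural markers followed the same library order as Ndufa4l2, at 130, 404, 88.7 and 249 CPM, as did the endothelial markers at 150, 482, 89.8 and 274, and their part in the value was not tested.

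In GTE the members leaned the other way, again without a call. The edgeR test called 0 of 97 members, against 4 of 12042 genes (0.0332%, with 0.0083% higher and 0.0249% lower in cKO), took 0 members at an unadjusted p under 0.05 against 5.22% of all genes, and DESeq2 called 0. The median log2 fold change was -0.59 over 9 mitochondrial and -0.68 over 88 nuclear members, against -0.05 over all genes, and 94 of 97 values were below 0. TMM scaling set these sizes in part. With library totals alone the median of all genes was 0.38, that of the mitochondrial members -0.32 and that of the nuclear members -0.38, and 82 of the 97 values were below 0. The CPM of both cKO libraries lay under both controls for 7 of 97 members, beside 6.67% of all genes, and above both for 1, beside 19.6%. Without GTE cKO 1 the medians were 0.09 and -0.20, without GTE cKO 2 they were -1.96 and -1.37, and without GTE control 2 the nuclear median was -1.08. Without GTE control 1 the medians were -0.40 and -0.10, and 36 nuclear values were above 0. Cell makeup moved with these values, since oligodendrocyte precursor markers summed to 1188, 1315, 4268 and 1627 CPM, and its part in them was not tested.

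Of the GTE members, Uqcrc1, a core subunit of complex III, had the smallest p, at 154, 58.2, 87.2 and 64.5 CPM (log2 fold change -0.99, SE 0.56, adjusted p = 0.966 in edgeR). Its high value was in control 1 alone. Uqcrc2, the other core subunit, was at 153, 64.2, 93.5 and 68.6 CPM, and the complex I subunit Ndufa9 at 94.1, 33.8, 46.2 and 48.3 CPM. In each of these genes control 1 was the highest library, and cKO libraries lay above control 2. Without control 1 the values of Ndufa9, Uqcrc1 and Uqcrc2 turned to 0.35, 0.19 and 0.14. mt-Nd6 was at 84.5, 104, 23.5 and 91.2 CPM (-0.87), low in cKO 1 alone. All 8 complex III genes had values below 0 (-0.99 to -0.32).

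The difference of the genotype effects between the sorts was tested over all 8 libraries. The edgeR interaction test called 0 of 95 members and 0 of 14026 genes (0%), took 1 member at an unadjusted p under 0.05 against 3.22% of all genes, and DESeq2 called 2, mt-Co2 and mt-Co3. The median log2 difference was 0.99 over 13 mitochondrial and 0.89 over 82 nuclear members against 0.03 over all genes, and with library totals alone 0.70 and 0.44 against -0.44. Single GTE libraries moved these medians, to 0.30 and 0.42 without cKO 1, 2.32 and 1.47 without cKO 2, and 0.75 and 0.19 without control 1. Of the members with the smallest p, mt-Nd4l had at most 13 counts in any GTE library, and mt-Co2 and mt-Co3 were at 0 in 3 of the GTE libraries. The others were the flavoprotein Sdha (0.96) and Ndufs1 (0.86), the large iron-sulphur subunit of complex I, both at an adjusted p of 0.941 in edgeR. Of 89 members tested in both sorts, only Ndufa1 had both cKO libraries above both controls in D1Tom and below both in GTE, beside 0.407% of 11805 genes, and 0 had the reverse, beside 1.63%.

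**Figure D3:**
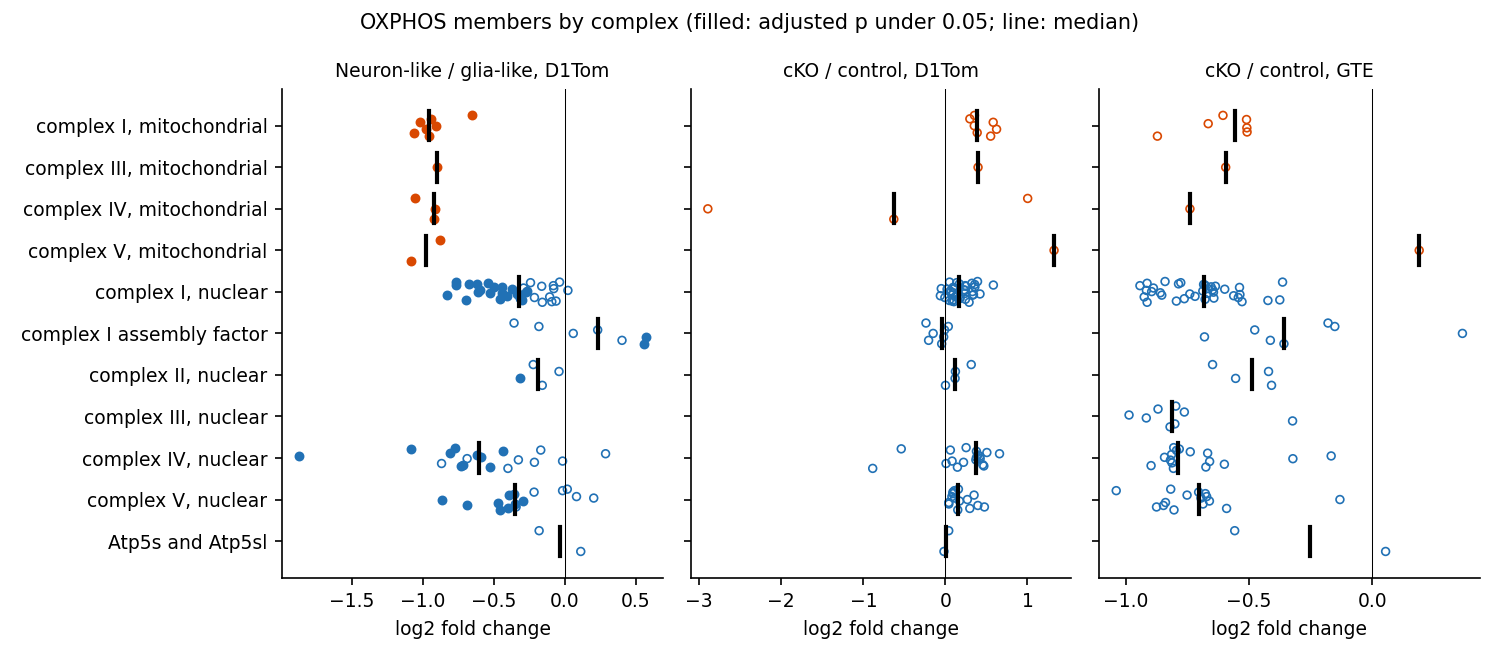
Log2 fold changes of the members, grouped by complex, for neuron-like over glia-like D1Tom cells, cKO over control in D1Tom, and cKO over control in GTE; each point is a gene and filled points passed an adjusted p of 0.05 in edgeR. Filled points are seen in the neuron-like against glia-like comparison, where all 13 mitochondrial genes lie below 0, and none in either genotype comparison.

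Most members had values lower in D1Tom than in GTE, whereas the few that edgeR called were mostly higher. Between the D1Tom and GTE control libraries edgeR called 7 of 94 members, 6 higher and 1 lower in D1Tom, against 1.42% of 13823 genes (1.13% higher and 0.289% lower). At an unadjusted p under 0.05 it took 68 members, beside 23.8% of all genes, and 81 of 94 values were below 0. The split of the calls depended on the setting. DESeq2 called 63 members, 9 higher and 54 lower, beside 1353 of the 13823 genes. Library totals alone called 25 (9 and 16), beside 1458 genes, and the replicate block 32 (10 and 22), beside 1524 genes. The background of calls thus rose with the members' calls. Both D1Tom controls lay below both GTE controls in CPM for 51 members, beside 7.55% of all genes, and above both for 16, beside 59.4%. The median log2 ratio of D1Tom over GTE was -1.47 over 12 mitochondrial and -1.30 over 82 nuclear members, against 0.06 over all genes, and with library totals alone -0.83 and -0.60 against 0.69. Without GTE control 1 the nuclear median was -0.63, and without GTE control 2 it was -1.76. The sorts also differed in reporter, animals, depth and cell makeup, which cannot be told apart here, and the 2 tables were deposited separately.

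The 6 members higher in D1Tom included 3 repeated mitochondrial genes, with D1Tom controls given before GTE controls. mt-Nd4l, a membrane subunit of complex I, was at 605 and 488 CPM against 2.17 and 1.25 (log2 ratio 7.61, SE 0.56, adjusted p = 0.00155 in edgeR). mt-Co3 was at 419 and 321 CPM against 0 and 0, at least 667-fold higher with 3 counts per library as the floor, and mt-Atp6 at 992 and 440 against 41.1 and 37.3 (3.51, adjusted p = 0.0234). None of these 3 genes overlapped between the sorts, which held for most genes. The 6 repeated genes had a median log2 ratio of 2.60 and the 6 other mitochondrial genes tested one of -1.75, and both medians kept those values with mt-Co3 at its bound. mt-Nd6 was the member lower in D1Tom, at 27 and 28.1 CPM against 86.0 and 106 (-2.44, SE 0.33, adjusted p = 0.0175), and it lost the call without either D1Tom control.

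The 3 nuclear genes called were also higher in D1Tom. Atp5g2, which encodes the proton-carrying c subunit of ATP synthase as do Atp5g1 and Atp5g3, was at 337 and 314 CPM against 3.17 and 1.25 (6.47, SE 0.58, adjusted p = 0.00229 in edgeR). Atp5g1 was at 815 and 813 CPM against 945 and 682, so the sorts overlapped for the gene that makes the same mature protein. Of the windows of Atp5g2, 19.0% were repeated in another transcript. Ndufa4l2 was at 12.1 and 29.6 CPM against 0.668 and 0.834 (4.18, adjusted p = 0.0336), and the call was lost without D1Tom control 2. Cox4i2, the oxygen-responsive form of complex IV subunit 4, was at 5.20 and 12.3 against 0 and 0 CPM, at least 15.8-fold higher at 3 counts per library (adjusted p = 0.0412). Mural markers moved with both of these genes, at 130 and 404 CPM in the D1Tom controls and 24.0 and 39.6 in the GTE controls, and neither gene had a repeated window. Atp5l (2.30, adjusted p = 0.0544) and Ndufs5 (2.15, adjusted p = 0.0744) had 74.4% and 39.9% of windows repeated and missed the threshold.

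Over all genes the median sort ratio had no steady order with the share of repeated windows, whereas calls per gene became more frequent as that share rose. The 12155 genes with no repeat had a median log2 ratio of 0.06, and 113 were called, 80 higher in D1Tom. The 652 genes with some but under 50% of windows repeated had a median of 0.0026, with 14 called, 12 higher. The 235 genes with at least 50% repeated had a median of 0.39, with 26 called, 25 higher. Among nuclear members the medians were -1.28 for 59 genes with no repeat, -1.52 for 18 with some and -0.59 for 4 with at least 50%. The part of the repeats in the sort ratios was not tested.

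**Figure D4:**
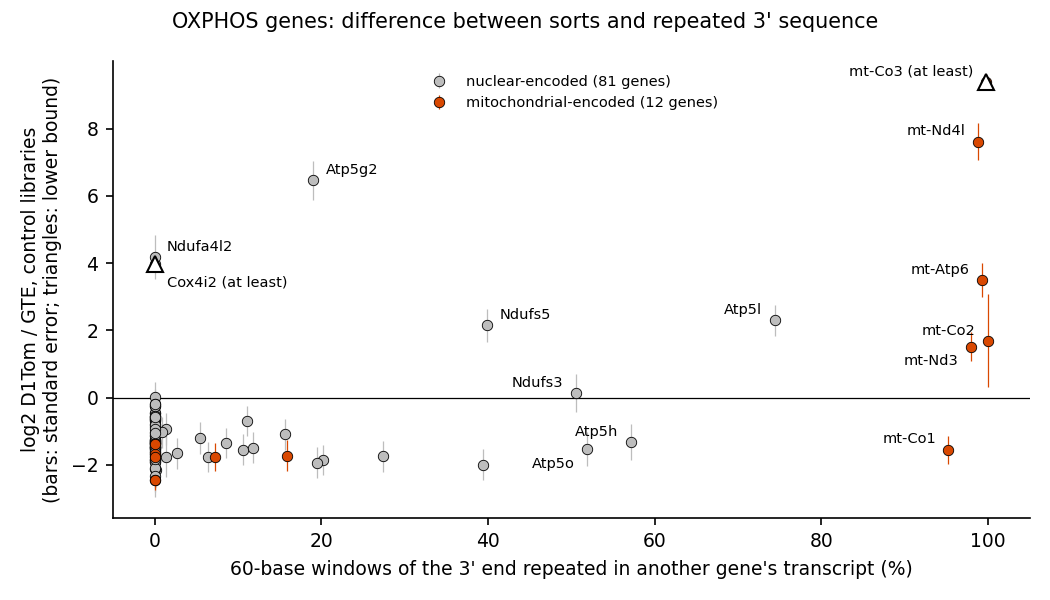
Log2 ratio of D1Tom over GTE control libraries for each member against the percentage of its 60-base windows repeated in other transcripts, for 81 nuclear and 12 mitochondrial genes; triangles mark the lower bounds of mt-Co3 and Cox4i2. Of the 6 mitochondrial genes at the right, 5 lie above 0, and the 6 at the left lie below 0.

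Among cell types, the mitochondrial share was lower in neuron-like than in glia-like cells of the same library. Neuron-like cells pooled all clusters named from neuronal marker lists, and glia-like cells pooled those named from astrocyte or oligodendrocyte precursor markers, in clusters built without any member. Cluster 4, described further on, carried pan-neuronal markers but no cell type name and was in neither class. Cluster 0 of D1Tom, with 1363 cells, 651 of them in control 1, also had no name and was in neither class. Its leading genes were Fos, Pla2g7, Slc7a10, Apoe, Cldn10, Hes5, Lfng, Fosb, Mfge8 and Igfbp2. Fos and Fosb belong to the list of dissociation and stress genes read further on. Aqp4 had a median over libraries of 747 CPM there, against 999 in glia-like and 94.9 in neuron-like cells. In the D1Tom libraries the mitochondrial share was 2.87%, 3.49%, 3.14% and 3.59% in neuron-like cells and 3.75%, 5.91%, 5.16% and 6.53% in glia-like cells. The nuclear share was 2.61%, 2.5%, 2.57% and 2.92% against 3.17%, 3.19%, 3.17% and 3.64%. The D1Tom neuron-like values lay below all D1Tom glia-like values for both shares. In cluster 0 the mitochondrial share averaged 4.54%, from 3.12% to 5.69% between libraries, so its lowest value lay within the neuron-like range. The nuclear share there was 2.95% to 3.58%, above the neuron-like values. The class comparison with cluster 0 counted as glia-like was not tested.

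The GTE control 2 library, with 79 neuron-like cells that were all Cajal-Retzius-like, had 3.86% against 5.58% and 2.25% against 3.11%. The ratio of mitochondrial to nuclear sums was lower in neuron-like cells in all 5 libraries, at 1.10, 1.40, 1.22, 1.23 and 1.72 against 1.18, 1.85, 1.63, 1.79 and 1.79 (GTE last). The mean log2 difference of neuron-like from glia-like cells was -0.65 for the mitochondrial share, -0.34 for the nuclear share and -0.31 for the ratio, each lower in 5 of 5 libraries (exact sign-flip permutation p = 0.0625, the smallest that 5 libraries allow). With cluster 4 counted as neuron-like, a choice made after seeing the data, the D1Tom mitochondrial shares were 3.57%, 3.58%, 3.79% and 3.76%, still under the glia-like share of the same library, but those of cKO 1 and cKO 2 lay above the 3.75% of control 1's glia-like cells. The ratio then turned in control 1, at 1.41 against 1.18, and its mean difference was -0.15, lower in 4 of 5 libraries (exact permutation p = 0.3125). The mitochondrial difference became -0.51 and the nuclear one -0.36. With the median over cells in place of the sum, the mitochondrial difference was -0.51 (exact p = 0.125) and that of the ratio -0.12 (exact p = 0.625). The depth differed between the classes, with library medians of 11132 to 17424 counts per cell in neuron-like and 7292 to 10100 in glia-like D1Tom cells, and its part in the difference was not tested.

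All 13 mitochondrial genes and 43 of 82 nuclear members fell in neuron-like against glia-like D1Tom cells, and 2 nuclear members rose. With the library as a block, edgeR called 58 of 95 members, 56 lower and 2 higher in neuron-like cells. This comparison called 51.1% of 13318 genes (26.6% lower and 24.5% higher), so the members' share of calls in either direction is read against a high background. The median log2 fold change was -0.94 over the 13 mitochondrial genes (-1.08 to -0.65) and -0.33 over 82 nuclear members, against 0.01 over all genes, and with library totals alone -0.81 and -0.20 against 0.14. mt-Cytb was at 5941, 7313, 6374 and 7580 CPM in neuron-like and 8443, 13155, 11087 and 14267 in glia-like cells (-0.90). mt-Co1 was at 619, 761, 1275 and 937 against 987, 1459, 2826 and 1791 (-1.06), lower in each library although its level differed between libraries. The repeated and the other mitochondrial genes had medians of -0.95 and -0.94. With cluster 4 counted as neuron-like, 62 members were called, 60 lower, beside 6980 of 13346 genes. The members called then included 12 of the 13 mitochondrial genes. Leaving out a library gave 30 to 60 member calls, beside 4219 to 6703 genes called. There were 30 without control 2, beside 4659 of 13203 genes, and 35 without cKO 1, beside 4219 of 13174.

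By complex, 23 of 36 nuclear complex I subunits, 10 of 18 nuclear complex IV genes and 9 of 15 nuclear complex V genes fell in neuron-like cells. Ndufb9, an accessory subunit of complex I, was at 383, 478, 420 and 551 CPM in neuron-like and 645, 752, 715 and 834 in glia-like cells (-0.83, SE 0.089, adjusted p = 0.00145 in edgeR). Ndufa1, needed for assembly of the membrane arm, was at 211, 205, 195 and 265 against 333, 303, 336 and 380 (-0.77). Cox4i1, the general form of complex IV subunit 4, was at 889, 1219, 991 and 1427 against 1623, 1892, 1550 and 1888 (-0.77). None of these 3 genes overlapped between the classes. The libraries' classes did not overlap for 31 of 95 members lower in neuron-like cells, beside 18.5% of all genes, and for 4 members higher, beside 28.7%. Cox6a1 (-0.81) and Cox8a (-0.73) also fell, whereas Cox7a2l, a factor of respiratory supercomplexes, did not pass (-0.01, adjusted p = 0.916).

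Complex II, which has no mitochondrial-encoded subunit, had 1 of 4 subunits called lower, a share near the 26.6% of all genes that fell. Sdhc, a membrane anchor, fell by 0.32 on the log2 scale. Sdha (-0.22, adjusted p = 0.170), Sdhb (-0.04, adjusted p = 0.757) and Sdhd (-0.16, adjusted p = 0.180) did not pass in edgeR. Of the 7 complex I assembly factors, 2 rose and none fell, a share near the 24.5% of all genes that rose. Ndufaf5 was at 63.3, 58.0, 69.3 and 42.2 CPM in neuron-like and 35.9, 31.6, 37.3 and 35.8 in glia-like cells (0.57, adjusted p = 0.0227). Ndufaf7, an arginine methyltransferase that acts early in complex I assembly, was at 49.2, 34.0, 49.6 and 31.9 against 31.1, 22.4, 22.6 and 24.4 (0.56). The classes did not overlap in either gene, but both calls were lost without control 2 and without cKO 1.

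The c-subunit genes of ATP synthase, which encode the same mature protein, had values of opposite sign. Atp5g2 was at 223, 223, 245 and 383 CPM in neuron-like and 559, 378, 385 and 430 in glia-like cells (-0.86, adjusted p = 0.00602 in edgeR), and Atp5g1 at 985, 906, 939 and 834 against 572, 779, 728 and 837 (0.20, adjusted p = 0.345). By cell type, Atp5g2 was lowest among named types in layer 5 pyramidal tract-like cells (158 ± 35.9 CPM, SD, n = 4 libraries) and at 448 ± 75.4 in astrocyte-like cells. Atp5g1 was at 1005 ± 55.1 and 724 ± 143 in the same cells. Whether the 2 genes differ in their change was not tested.

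Cell types of D1Tom were ordered by share. The mitochondrial share was 5.52 ± 1.21% in astrocyte-like and 5.12 ± 1.27% in oligodendrocyte precursor-like cells (SD, n = 4 libraries). It was 3.64 ± 0.230% in layer 6 corticothalamic-like, 3.50 ± 0.468% in layer 5 pyramidal tract-like, 3.35 ± 0.737% in caudal interneuron-like, 3.34 ± 0.930% in Cajal-Retzius-like, 3.25 ± 0.217% in other excitatory neuron-like and 3.18 ± 0.374% in upper layer-like cells. The ranges over libraries of the neuron-like types overlapped. Within libraries, layer 6 corticothalamic-like cells lay above upper layer-like cells in all 4 (3.31%, 3.68%, 3.86% and 3.71% against 2.79%, 3.46%, 2.92% and 3.53%) and above other excitatory neuron-like cells in all 4 (2.95%, 3.44%, 3.25% and 3.37%), a difference that was not tested. The layer 6 type pooled a shallow cluster of 168 cells, at 0.334 of the library median count. Its library medians were 3438 to 16136.5 counts per cell, against 17254 to 26710.5 in upper layer-like and 16780 to 31607.5 in other excitatory neuron-like cells. The part of depth in this order was not tested. The nuclear share ordered the types otherwise, with 3.42 ± 0.193% in caudal interneuron-like cells, as high as the 3.43 ± 0.224% of astrocyte-like cells, and 2.09 ± 0.173% in layer 5 pyramidal tract-like cells. The ratio was therefore 0.974 ± 0.170 in the former and 1.69 ± 0.317 in the latter, ranges over libraries that did not overlap (0.763 to 1.16 and 1.5 to 2.16). No test of this pair was made. The caudal interneuron-like type also pooled a shallow cluster of 167 cells, at 0.272 of the library median count. Sst and Adarb2 led that cluster. The part of depth and of this pooling in the nuclear share and the ratio was not tested.

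Clusters 4 and 2 of D1Tom had the highest mitochondrial shares. The marker rule gave cluster 4 no name and gave cluster 2 the name erythroid, with 4 of 6 markers at 2-fold. That name is not used here, and cluster 2 is given by its number. Cluster 4, with 915 cells led by Pfkp and with pan-neuronal markers at 6574 to 10130 CPM, had a mitochondrial share of 9.62 ± 2.17% and a nuclear share of 2.12 ± 0.625%. Its ratio was 5.10 ± 2.52 and ranged from 2.85 to 7.39 between libraries. Its cells were shallow, with a median of 0.384 of their own library's median count. Cluster 2, with 1070 cells led by haemoglobin genes and several mitochondrial genes, had 9.0 ± 0.566% and 4.50 ± 0.531%, high for both genomes. Haemoglobin genes there ranged from 12.3 to 86309 CPM between libraries and pan-neuronal markers from 3985 to 4649.

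In GTE the 4 unnamed clusters present in at least 3 libraries had mitochondrial shares of 7.16% to 9.48% on average and nuclear shares of 4.49% to 6.01%. GTE cells that the marker rule named erythroid had 7.95 ± 3.22% and 4.94 ± 1.49% (SD, n = 4 libraries). GTE astrocyte-like cells had 4.94 ± 0.942% and 3.61 ± 1.06%, and GTE oligodendrocyte precursor-like cells 4.15 ± 0.899% and 3.47 ± 0.774%. For both of these glia-like types the ranges over libraries overlapped between the sorts in both shares. The totals over all cells were higher in the GTE controls than in the D1Tom controls. That comparison leaves out the cKO libraries, which the glia-like values include, so the 2 are not over the same libraries. The nuclear sums were not over the same genes, with 91 members in GTE and 84 in D1Tom, where the Uqcr genes were missing.

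**Figure D5:**
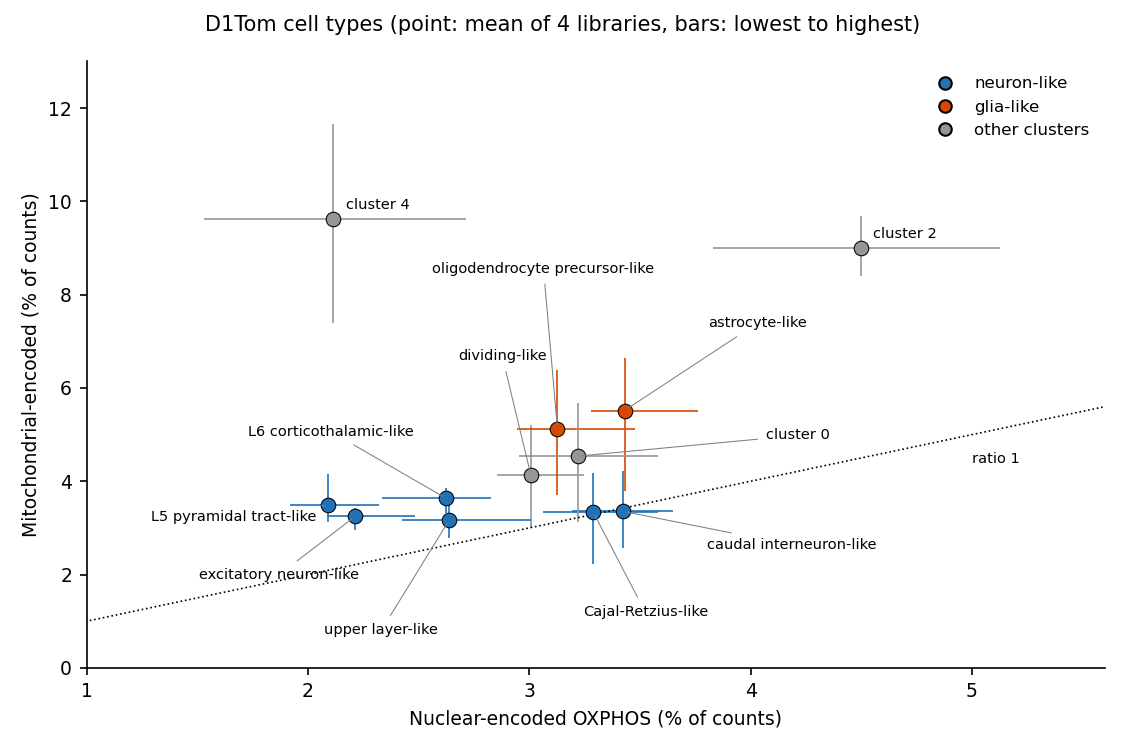
Mitochondrial-encoded against nuclear-encoded share of counts for the D1Tom cell types and clusters present in 4 libraries; points are means over libraries and bars run from the lowest to the highest library. Glia-like types lie at a higher mitochondrial share than neuron-like types, cluster 4 lies far up at 9.62% with a low nuclear share, and caudal interneuron-like cells join a neuron-like mitochondrial share to a nuclear share of 3.42%.

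Between genotypes within a cell type, the main edgeR fits without the batch as a block called 1 member, mt-Co2 in D1Tom. Fits in 12 D1Tom types called 5 of 125446 gene tests (0.00399%), of which 2 were mt-Co2, and fits in 7 GTE types called 5 of 44245 (0.0113%), none of them a member. With the labelled batch as a block, 26 of 1083 member tests in D1Tom types were called, 11 higher and 15 lower, beside 282 of the 125446 gene tests (0.225%). DESeq2 without the block called 3 member tests in D1Tom types, 1 higher and 2 lower in cKO, beside 25 gene tests (0.0199%), and 0 in GTE types. In cluster 4 mt-Co2 was at 271, 416, 31.3 and 42.5 CPM (-3.29, SE 0.39, adjusted p = 0.00122 in edgeR) and in cluster 2 at 191, 531, 19.4 and 58.5 (-3.13, SE 0.47, adjusted p = 0.0377). The cKO libraries lay below both controls in each cluster, as they did over all cells. mt-Co2 is among the genes repeated in nuclear copies, and DESeq2 gave an adjusted p of 1.00 in cluster 2. Type by type, the median log2 fold change lay between 0.00 and 0.37 for mitochondrial and between -0.11 and 0.17 for nuclear members in D1Tom, and between -0.53 and -0.18 and between -0.61 and -0.36 in GTE.

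Members with restricted isoforms marked particular clusters. Ndufa4l2, a relative of the complex IV subunit Ndufa4 known from hypoxic cells and pericytes, was at 279 CPM in control 2 and 250 in cKO 2 in cluster 14, whose leading genes included the vessel genes Cldn5, Igfbp7, Rgs5 and Flt1, and averaged at most 6.03 CPM in every other D1Tom type or cluster with at least 2 libraries. Cox4i2 was at 108 and 126 CPM in the same cluster and at most 5.42 on average elsewhere. Both genes thus stood over 10-fold above their mean level in each other D1Tom type or cluster with at least 2 libraries. Cluster 14 held 229 cells in the 2 libraries with at least 30 cells, and it carried both endothelial markers (4063 to 4493 CPM) and mural markers (3699 to 3801), so the genes cannot be assigned to either. The general forms Ndufa4 and Cox4i1 were at 666 ± 34.6 and 1518 ± 36 CPM there (SD, n = 2). Its mitochondrial share was 2.25 ± 0.206%.

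Cox6b2 was at 23.2 ± 7.70 CPM in astrocyte-like, 16.8 ± 4.62 in oligodendrocyte precursor-like and 26.3 ± 13.4 in Cajal-Retzius-like cells. In committed oligodendrocyte precursor-like cells it was at 54.2 ± 11.5 (n = 2), and in upper layer-like cells at 3.38 ± 1.62. In neuron-like against glia-like sums it was at 3.95, 4.79, 7.21 and 8.70 CPM against 27.9, 15.8, 22.4 and 15 (-1.87, SE 0.29, adjusted p = 0.0031 in edgeR), the lowest log2 value of any member. The general form Cox6b1 averaged 682 to 1341 CPM in the named types present in 4 libraries, so Cox6b2 remained the minor form. Cox7a1 was highest in Cajal-Retzius-like cells, at 15.6 ± 9.42 CPM, with a spread that reached the level of other types. Cox6a2 averaged 12.5 CPM or less in every type, and Cox8b had 0.326 CPM at most.

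The nuclear members' promoters were read from RefSeq (GRCm38.p6) for the binding motif of NRF1, a transcription factor long known to act on respiratory chain genes. Of 92 nuclear members, 76 had a promoter, taken as 250 bases before to 50 after the start of the gene. The 10-base motif, shown in capitals in the stretches printed here and searched on both strands with any base allowed at the fifth position, was found in 18 of them (23.7%), beside 4.60% of all 32851 promoters in the table and 8.29% of the 12911 promoters of genes in the count tables. The match is a description of letters and not of binding. Stretches are shown for Atp5g2, which differed most between sorts among nuclear members with counts in every control library, and for Cox6a1, which fell in neuron-like cells, with the motif in capitals: Atp5g2 (chr15:102671060-102671109, minus strand, motif 32 bases before the start) and Cox6a1 (chr5:115349091-115349140, minus strand, motif 152 bases before the start).
Atp5g2: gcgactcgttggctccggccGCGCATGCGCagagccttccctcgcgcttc
Cox6a1: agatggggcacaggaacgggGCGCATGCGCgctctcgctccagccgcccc

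Genes of neighbouring pathways were read from fixed lists. In D1Tom cKO against control edgeR called none of them, with medians of -0.02 for 31 assembly factors outside the rule, -0.04 for 7 electron carrier genes, 0.07 for 19 genes of mitochondrial transcription and DNA maintenance, 0.09 for 18 genes of the citric acid cycle and pyruvate entry, 0.10 for 17 glycolysis genes and 0.01 for 76 mitochondrial ribosomal proteins. The dissociation and stress list had a median of -1.06, with 3 of 10 genes at an unadjusted p under 0.05. Fos, an immediate early gene induced by dissociation, was at 539 CPM in D1Tom control 1 and 50.8 to 61.9 in the other D1Tom libraries. The haemoglobin list had a median of -1.0. In GTE edgeR called none either, and the glycolysis list had a median of -0.81, with Pfkp at -1.38 and Eno2 at -1.14. The part of dissociation in the members' values was not tested.

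In neuron-like against glia-like D1Tom cells, 4 of 7 electron carrier genes fell, among them Etfb (-1.54) and Etfa (-1.20), the electron transfer flavoproteins of fatty acid oxidation. Of 17 glycolysis genes 6 were called, in a comparison that called 51.1% of all genes (26.6% lower and 24.5% higher). Pfkp (2.17) and Eno2 (1.72) rose, and Aldoc (-3.09), Hk2 (-2.36), Ldhb (-1.76) and Eno1 (-1.27) fell. Aldoc was also among the markers that named astrocyte-like clusters. Of 18 genes of the citric acid cycle and pyruvate entry, Dlat rose (0.47) and 3 fell, with Suclg2 at -2.35. Of 19 genes of mitochondrial transcription and DNA maintenance, Lrpprc, which stabilises mitochondrial mRNA, rose (0.50) and 6 fell, among them the DNA polymerase gene Polg (-1.27), Gabpa (-0.95), Nrf1 (-0.62) and the coactivator gene Ppargc1a (-0.55). Of 76 mitochondrial ribosomal protein genes, 5 rose and 15 fell, with a median of -0.05. The glycolysis, citric acid cycle, mitochondrial transcription and ribosomal protein lists each held a smaller share of calls than all genes did. In the same comparison 6 of 8 dissociation genes fell, with a median of -1.77, and the part of dissociation in the members' values was not tested.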

How the data were processed

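Each sort came as a matrix of counts by gene and cell, deposited by the authors, whose values were whole numbers and, per the labels, counts of unique molecular identifiers. The fraction of mitochondrial counts per cell that the authors deposited equalled the value recomputed from the matrix within rounding. The submitters' processing notes name bcl2fastq 2.17.1.14, Cell Ranger 2.1.1, FastQC 0.11.5, UMI-tools 0.5.4, STAR 2.5.2b, Subread 1.6.2 with featureCounts, SAMtools 1.6 and the builds mm10 and GRCm38.p6. Values of 2 were 0.307 to 1.69 times as frequent as values of 1, so no binomial interval was given.

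Sums of counts were taken for each library and for each cell type with at least 30 cells per library, and were tested with edgeR 4.0.16 (quasi-likelihood, TMM factors, default filter, Benjamini-Hochberg, threshold 0.05) in R 4.3.3. DESeq2 1.42.0 was an alternative. Simulated 2-fold changes were recovered for 87 of 100 genes in the D1Tom genotype comparison and 44 in the interaction. The simulation used the same set dispersion for every gene, not estimated from these libraries, so it does not give the power of the real tests. Shares were tested by exact two-sided permutation. The edgeR and DESeq2 p-values set a difference against the variation between library sums, and cells were not treated as replicates. Those of the permutation tests count arrangements of the libraries' labels or signs.

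Cells with at least 500 counts (143 GTE cells had fewer) were clustered without the members, using 2000 variable genes, 30 components, 20 neighbours and Leiden resolution 1 (scanpy 1.11.5, leidenalg 0.10.2). Names needed 3 markers at 2-fold. No doublet caller was run. D1Tom numbers pair libraries by labelled batch (correlation of deviations 0.50 over 14508 genes). Windows were compared exactly, and copies aligned with blastn 2.17.0.

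Named genes were all mt- genes, members past the threshold, the 5 members of smallest p per comparison, isoform pairs, complex II, and the called or smallest-p genes of the other lists, and Ndufa4l2, complex extremes and further isoforms were added after seeing values. A member that the rule named is not reported here. The members and lists were chosen with earlier results of these data known.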

Additional observations from a re-analysis of the deposited data

Results flagged for a closer look

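Ndufa1, an accessory complex I subunit, was the only one of 89 members tested in both sorts whose CPM lay above both controls in both cKO libraries of D1Tom and below both controls in both cKO libraries of GTE, a pattern of 0.407% of 11805 genes. The D1Tom levels were 243 and 237 CPM in the controls, then 254 and 341 in cKO (log2 fold change 0.39, SE 0.24). The GTE levels were 603 and 509 CPM in the controls, then 256 and 495 in cKO (-0.84, SE 0.78). The fitted difference of the 2 effects was 1.24 on the log2 scale and did not pass the threshold in edgeR.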

How the results depend on the processing

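Directions mostly held and counts of called members moved with the settings. For the shares over both sorts, leaving out a library gave -0.36 to 0.22 for the mitochondrial share, -0.32 to 0.038 for the nuclear share and -0.092 to 0.24 for the ratio. The sign turned without D1Tom cKO 1 (0.0038) and GTE cKO 1 (0.22) for the mitochondrial share, without GTE cKO 1 (0.038) for the nuclear share, and without GTE cKO 2 (-0.04) and GTE control 1 (-0.092) for the ratio. No other alternative turned a sign, and since the smallest p of these designs is above 0.05, the side of the threshold says nothing of stability.

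Members called in D1Tom cKO against control were 2 by DESeq2 (of 20 genes called), and 0 to 1 without a library (of 0 to 6 genes). In GTE they were 3 with no filter on low counts (of 18 genes) and 0 to 3 without a library (of 1 to 27), and in the interaction 2 by DESeq2 (of 7). Between sorts they were 63 by DESeq2 (of 1353 genes), 3 with the mitochondrial genes left out of the totals (of 188), 25 without TMM factors (of 1458), and 5 to 84 without a library (of 149 to 3253), where the lone library of a group was assumed to vary like the others. All 7 calls were kept under DESeq2, without TMM factors and without either GTE control. Neuron-like against glia-like calls numbered 30 to 60 without a library (of 4219 to 6703 genes). Within D1Tom types the calls were 28 with no filter (0.183% of gene tests) and 12 to 22 without a library (0.0834% to 1.92%), and within GTE types 9 with no filter (0.0495%) and 3 to 95 without a library (0.0411% to 3.81%). The cause was not tested. Genes whose sign turned without GTE control 1 ranged, without a library, over -1.49 to 0.35 for Ndufa9, -1.58 to 0.19 for Uqcrc1, -1.47 to 0.14 for Uqcrc2 and -2.89 to 11.15 for mt-Co2 in the interaction.

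With the replicate block, which pairs D1Tom libraries by batch, 1 member was called in D1Tom (mt-Co2), 32 between sorts (of 1524 genes), where numbers name no shared batch, and 26 within D1Tom types (0.225% of gene tests), and it changed no other call. With the block the exact permutation p for the shares was 1, 1 and 0.375. Same-numbered GTE libraries deviated in opposite directions (correlation -0.35), and the crossed pairing, chosen after seeing the data, called 24 of 12042 genes and 0 members. The totals without TMM factors and the sums without repeated mitochondrial genes were also chosen after seeing the data. Depth limits the restricted genes in GTE, where a library's count of 0 allows up to 0.615 CPM in control 2. The neuron-like against glia-like fit was not run in GTE, where 1 library had 30 cells of both classes.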
